A study of Mus musculus with 6 samples.

Results

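Renal cancer genes other than Vhl were followed in RNA-seq counts of mouse renal primary tubular epithelial cells (PTECs). The 9 genes Pbrm1, Bap1, Arid1a, Tsc1, Tsc2, Mtor, Trp53, Flcn and Cdkn2a were chosen by symbol from the 46095 rows of the gene count table, because they are known from kidney cancer genetics. A filter on low counts kept 14611 rows for testing, among them 8 of the 9 genes, and Cdkn2a fell below it. Of these genes, 8 act as tumour suppressors, whereas Mtor encodes the growth kinase that the TSC1/TSC2 complex restrains.

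PTECs were taken from 10-week-old mice. The 3 libraries labelled VHL-KO (replicates 1, 2 and 4) came from mice with Ksp-Cre and VHL fl/fl, and the 3 labelled VHL-KO;SETD2-KO (replicates 2, 3 and 4) from mice that carried Setd2 fl/fl in addition. Both groups thus carried the Vhl deletion and the Cre transgene, so that only the SETD2 allele differed by label, and no library with intact Vhl was compared. Ksp-Cre is driven by the Cdh16 promoter in tubular epithelium, and cells outside its expression keep intact alleles.

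SETD2 writes trimethylation of lysine 36 on histone H3. In clear cell renal carcinoma, loss of VHL is the usual first event. SETD2, PBRM1 and BAP1 lie on the same human chromosome arm as VHL, so that several are often lost together. PBRM1 and ARID1A are subunits of SWI/SNF chromatin remodellers, BAP1 removes ubiquitin from histone H2A, TSC1/TSC2 and FLCN control mTOR signalling at the lysosome, and p53 and the CDKN2A products hold back the cell cycle.

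Total counts ranged from 11168552 to 17883466 per library. The library labelled VHL-KO replicate 4 stood apart, with 11.3% of counts on mitochondrial genes against 25.9% to 36.4% in the other 5. Fold changes and calls are therefore given with and without it. Setd2 itself did not separate the labels. It had 71.5, 73.9 and 12.3 CPM (counts scaled to library size with TMM factors) in VHL-KO-labelled libraries. In VHL-KO;SETD2-KO-labelled ones it had 79.6, 57.4 and 89.6 CPM. Its log2 fold change, VHL-KO;SETD2-KO over VHL-KO, was 0.52 ± 0.64 (SE, n = 3 per group; edgeR adjusted p = 0.787) and 0.05 without VHL-KO replicate 4. Vhl had 14.1, 12.9 and 25.8 CPM, then 14.4, 17.9 and 11.9 CPM. Counts summed over a gene do not show whether reads of the deleted exons are missing, so every direction below rests on the label alone.

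The proximal tubule was well represented, with the phosphate carrier gene Slc34a1 at 2188.5 to 14206.2 CPM and Lrp2 (megalin) at 939.9 to 3383.7 CPM over the 6 libraries. Cdh16, whose promoter drives the Cre and which is in the thick limb and distal tubule list here, was at 331.5 to 2256.5 CPM. Bulk counts do not show in which cells the Cre acted, so how much of the proximal tubule RNA came from deleted cells is not known. Marker sums of some cell types differed between the groups by label, although 0 markers passed an adjusted threshold in edgeR. The 8 proximal tubule markers summed to 11571 to 21910 CPM in VHL-KO-labelled libraries and to 4950 to 7142 CPM in VHL-KO;SETD2-KO-labelled ones, and 4 of the 8 were lower by the unadjusted rule given below. That rule called 4.68% of all tested genes lower and 2.65% higher. The 5 podocyte markers summed to 1209 to 2056 CPM and to 1708 to 3972 CPM, with 2 of 5 higher. Endothelial markers summed to 1710 to 2470 and to 1978 to 5674 CPM with 0 of 8 called, and thick limb and distal tubule markers to 1789 to 7081 and to 1928 to 5053 CPM with 2 of 8 higher. Collecting duct markers summed to 54.1 to 570.2 and to 81.7 to 286.8 CPM with 1 of 8 higher, stromal markers to 88.7 to 427.1 and to 86.8 to 232.3 CPM with 0 of 7 tested genes called, macrophage markers to 115.3 to 340.3 and to 82.4 to 264.3 CPM with 2 of 8 lower, and lymphocyte markers to 10.1 to 17.4 and to 5.24 to 22.2 CPM with 0 of 7 tested genes called. The highest collecting duct and stromal sums, 570.2 and 427.1 CPM, were those of VHL-KO replicate 4, and the other VHL-KO-labelled libraries were at 54.1 and 77.2 CPM and at 104.2 and 88.7 CPM. VHL-KO;SETD2-KO replicate 3 differed from replicates 2 and 4 of its label. Its podocyte sum was 1707.6 against 3971.8 and 3595.5 CPM, and its endothelial sum 1978.1 against 5673.9 and 4850.8 CPM. Both sums of replicate 3 lay within the VHL-KO range. Its thick limb and distal tubule sum was 5052.5 against 1928.2 and 2252.9 CPM, and its collecting duct sum 286.8 against 81.7 and 86.6 CPM. Without VHL-KO replicate 4, the median log2 fold change of the collecting duct list moved from -0.13 to 1.92 with 3 of 8 higher, and that of the stromal list from -0.37 to 0.64 with 2 of 7 higher. Proximal tubule markers then had 6 of 8 lower, podocyte markers 3 of 5 higher, thick limb and distal tubule markers 2 of 8 higher, macrophage markers 1 of 8 lower, and 0 endothelial or lymphocyte markers were called. Of all tested genes 7.14% were lower there and 8.29% higher. At an adjusted p under 0.05 with a 1.5-fold change, DESeq2 on the same libraries called 6 of 8 proximal tubule markers lower. It called 3 of 5 podocyte, 3 of 8 collecting duct and 1 of 8 thick limb and distal tubule markers higher, and 0 in the other marker lists. By that DESeq2 rule 4.69% of all tested genes were lower and 3.56% higher. In bulk libraries fewer cells of a type and less RNA per cell cannot be told apart, and the part of cell makeup in the results below was not tested.

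Mtor was the 1 gene of the 9 that separated the labels with a clear margin. The kinase mTOR is the catalytic subunit of mTORC1 and mTORC2, which couple nutrients and growth factors to protein synthesis. Mtor was at 112, 118 and 109 CPM in VHL-KO-labelled libraries, from 1855, 1276 and 1166 counts. In VHL-KO;SETD2-KO-labelled ones it was at 44.2, 38.9 and 67.4 CPM, from 832, 690 and 1074 counts. All 3 libraries of the second label lay below all 3 of the first, and the library VHL-KO replicate 4, apart for so many genes, was close to its group here.

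The group means were 113 ± 4.55 and 50.1 ± 15.2 CPM (SD, n = 3 each), and the fitted level was 2.26-fold lower in the second group. Mtor had a log2 fold change of -1.17 ± 0.40 (SE; 95% interval -2.08 to -0.26), with an unadjusted p of 0.0175 and an adjusted p of 0.625 in edgeR's quasi-likelihood test over all 14611 genes. The log2 ratio of its mean CPM was -0.91 over raw library totals and -0.84 over totals without mitochondrial genes, both without TMM factors. With TMM factors and mitochondrial genes left out, its fitted log2 fold change was -1.14. Mtor thus met the rule of an unadjusted p under 0.05 with a change of at least 1.5-fold, but not the adjusted threshold. By that rule, 1 of the 8 tested genes was lower and 0 were higher, where 4.68% of all tested genes were lower and 2.65% higher. A single call among 8 genes is too few to be read against that background. At an adjusted p under 0.05, 0 of the 8 genes were called by edgeR and 0.00684% of all tested genes.

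Leaving out the library VHL-KO replicate 4 gave Mtor a log2 fold change of -1.20 ± 0.25 (95% interval -1.81 to -0.60; edgeR adjusted p = 0.0983). DESeq2 on the same 5 libraries gave a 2.31-fold lower level with an adjusted p of 0.00158, and none of the other 7 tested genes passed there. At that threshold with a 1.5-fold change, DESeq2 called 4.69% of genes lower and 3.56% higher without this library, and edgeR's unadjusted rule called 7.14% lower and 8.29% higher. The same DESeq2 rule called 6 of the 8 proximal tubule markers lower and 0 higher. Over 6 fits with 1 library omitted from each, the log2 fold change of Mtor lay between -1.43 and -1.01. Its unadjusted p rose to 0.0543 without VHL-KO replicate 2, to 0.0753 without VHL-KO;SETD2-KO replicate 3 and to 0.0904 without VHL-KO;SETD2-KO replicate 2, so that each of these libraries decides the unadjusted call.

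**Figure D1:**
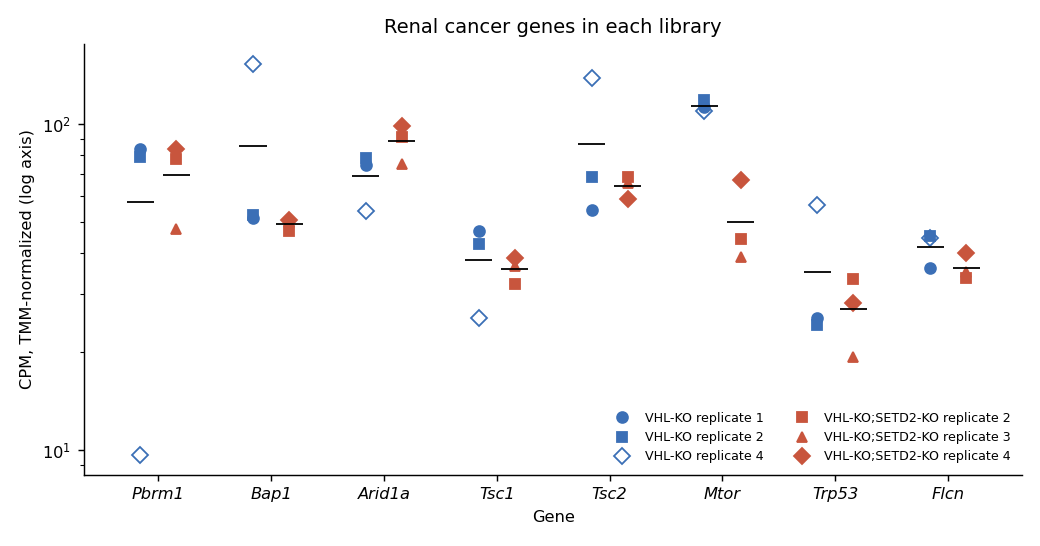
TMM-scaled CPM (log axis) of the 8 tested renal cancer genes in each of the 6 libraries, coloured by genotype label, with black lines at the group means (n = 3). The open diamond is VHL-KO replicate 4, which is far from its group for Pbrm1, Bap1, Tsc2 and Trp53, while for Mtor the 3 VHL-KO libraries sit at 109 to 118 CPM and the others at 38.9 to 67.4 CPM.

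Mtor lies on the plus strand of chromosome 4 at chr4:148448582-148557685 (GRCm38.p6, RefSeq). Its upstream bases are shown because Mtor is the gene on which the comparison turned. They are the 250 bases before the annotated Mtor start, chr4:148448332-148448581, plus strand, from RefSeq, with capitals marking the core CCGGAAG to which ETS factors are known to bind:
Mtor upstream: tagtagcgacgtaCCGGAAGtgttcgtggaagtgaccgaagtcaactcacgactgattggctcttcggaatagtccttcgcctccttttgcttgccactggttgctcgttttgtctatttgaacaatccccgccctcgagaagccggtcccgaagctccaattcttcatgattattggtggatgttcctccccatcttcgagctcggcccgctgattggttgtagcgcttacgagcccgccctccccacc
Searched on both strands in windows of 250 bases before to 50 after each annotated start, CCGGAAG was in 8.86% of all 32851 windows, and among the 9 genes in those of Mtor and Tsc2. The Mtor window held 21 CG dinucleotides, against a median of 7 over all windows, and 75.2% of all windows held fewer. The windows of the 9 genes ran from 10 in Trp53 to 50 in Bap1. The E-box CACGTG, in 7.15% of windows, was in those of Pbrm1, Bap1 and Trp53, and TATAAA, in 13.6% of windows, was in that of Trp53. A match is a description of the letters only.

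Angptl7, a gene for a secreted angiopoietin-like protein, lies inside the Mtor gene at chr4:148495181-148500462 on the minus strand, and 0 of its annotated exons overlap an exon of Mtor. It was at 8.79, 8.97 and 5.61 CPM, then at 2.13, 1.75 and 3.07 CPM. All 3 VHL-KO;SETD2-KO-labelled libraries were again lower, with a log2 fold change of -1.75 ± 0.46 (unadjusted p = 0.00522, edgeR adjusted p = 0.625), and of -1.94 without VHL-KO replicate 4. Whether strand was used in counting is not given in the sources used here, so reads from unspliced Mtor RNA and from Angptl7 cannot be told apart.

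Tsc1 and Tsc2 encode hamartin and tuberin, the partners of the complex that switches off RHEB and so restrains mTORC1. Tsc1 was at 46.9, 42.7 and 25.3 CPM in VHL-KO-labelled libraries and at 32.3, 36.5 and 38.8 CPM in VHL-KO;SETD2-KO-labelled ones. The VHL-KO group spanned the whole range of the other, since its replicate 4 was the lowest of the 6 libraries and the other 2 were the highest. Tsc1 had a log2 fold change of -0.09 (95% interval -1.0 to 0.81; edgeR adjusted p = 0.937). Without VHL-KO replicate 4 it was -0.32 (95% interval -0.66 to 0.02), with an unadjusted p of 0.0588 and an adjusted p of 0.261.

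Tsc2 was at 54.3, 68.6 and 138 CPM, then at 68.8, 65.8 and 58.8 CPM. Only VHL-KO replicate 4 was far from the rest, and the other 5 libraries overlapped. The log2 fold change moved from -0.43 (95% interval -1.48 to 0.62; edgeR adjusted p = 0.759) to 0.07 (95% interval -0.32 to 0.45) without that library. The 3' end of Tsc2 at chr17:24595816-24632676 overlaps Pkd1 on the other strand, where the same limit on strand holds as for Angptl7. The same is true of Smim4, on the minus strand, at the 3' end of Pbrm1.

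Around this axis, 18 genes of the TSC and mTOR complexes, their regulators and substrates were tested. By the unadjusted rule 0 were higher and 1 was lower, against 2.65% and 4.68% of all tested genes. The lower one was Rps6kb2, the gene of the S6 kinase S6K2. It was at 1.39, 0.740 and 3.74 CPM in VHL-KO-labelled libraries and at 0.478, 0.282 and 0.376 CPM in the others. Every value of the second group was below the first, with a log2 fold change of -2.34 ± 0.73 (unadjusted p = 0.0119, edgeR adjusted p = 0.625), although it rests on 5 to 9 counts per library in the lower group. Without VHL-KO replicate 4 its log2 fold change was -1.50 (unadjusted p = 0.0306), and it was not tested where at least 10 counts were required in every library. The median log2 fold change of the list was -0.40, and -0.06 without VHL-KO replicate 4, where the median of all tested genes was 0.009 and 0.035.

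Flcn encodes folliculin, the gene of Birt-Hogg-Dubé syndrome, which acts on the Rag GTPases and keeps TFEB and TFE3 out of the nucleus. Flcn was at 36.2, 45.1 and 44.7 CPM, then at 33.7, 35.0 and 40.0 CPM. The groups overlapped through VHL-KO replicate 1, and Flcn had the narrowest spread of the 8 tested genes across the 6 libraries. Its log2 fold change was -0.21 (95% interval -1.02 to 0.60; edgeR adjusted p = 0.833), and -0.17 (95% interval -0.55 to 0.22) without VHL-KO replicate 4. Without TMM factors the log2 ratio of its mean CPM changed sign, to 0.0668 over raw library totals and 0.14 over totals without mitochondrial genes. That of Tsc1 changed to 0.17 and 0.19. With TMM factors and mitochondrial genes left out, the fitted log2 fold changes were -0.17 for Flcn and -0.0709 for Tsc1.

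Of 30 tested genes of the FLCN partners and the lysosomal amino acid sensors, 1 was higher and 1 lower by the unadjusted rule, against 2.65% and 4.68% of all tested genes. Sesn1, the leucine sensor and p53 target sestrin 1, was at 10.4, 14.3 and 5.61 CPM in VHL-KO-labelled libraries and at 21.6, 23.9 and 23.1 CPM in VHL-KO;SETD2-KO-labelled ones. Its log2 fold change was 1.17 ± 0.44 (unadjusted p = 0.0277, edgeR adjusted p = 0.625), with no overlap between the groups. Gatsl2, which encodes CASTOR2, a partner of the arginine sensor CASTOR1, went the other way, from 66.4, 59.7 and 99.4 CPM to 31.4, 30.7 and 48.2 CPM. All its VHL-KO;SETD2-KO values were below the others, with a log2 fold change of -1.03 ± 0.41 (unadjusted p = 0.0370, edgeR adjusted p = 0.625). Both unadjusted calls were lost when any 1 of the VHL-KO;SETD2-KO replicates 2, 3 and 4 was left out, and that of Sesn1 also without VHL-KO replicate 1.

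Without VHL-KO replicate 4, DESeq2 called Sesn1 higher (adjusted p = 0.00704) and Fnip2, the gene of a folliculin partner, lower (adjusted p = 0.000281). Neither passed in edgeR on the same libraries, with adjusted p of 0.104 for Sesn1 and 0.0785 for Fnip2. Fnip2 was at 109.6, 109.3 and 20.9 CPM, then at 45.1, 51.8 and 64.4 CPM, so its groups separate only when the replicate 4 library is left out. The median log2 fold change of the list was -0.46, and -0.11 without that library, where 2 genes were higher and 2 lower by the unadjusted rule. Of all tested genes 8.29% were higher and 7.14% lower there by that rule, and 3.56% and 4.69% by DESeq2 adjusted p with a 1.5-fold change.

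Among 15 tested target genes of TFEB and TFE3, a list that holds Flcn itself, 0 were higher and 1 was lower by the unadjusted rule. Of all tested genes 2.65% were higher and 4.68% lower. Neu1, the lysosomal sialidase, was at 22.1, 17.2 and 49.2 CPM in VHL-KO-labelled libraries and at 11.1, 9.12 and 12.9 CPM in the others. The groups did not overlap, and the log2 fold change was -1.42 ± 0.49 (unadjusted p = 0.0198, edgeR adjusted p = 0.625). Without VHL-KO replicate 4 the adjusted p of Neu1 was 0.0307 in DESeq2 and 0.132 in edgeR. The unadjusted call was lost without VHL-KO;SETD2-KO replicate 2 or replicate 3. The list median was -0.52, and -0.10 without VHL-KO replicate 4, where 1 target was higher and 1 lower by the unadjusted rule. Of all tested genes 8.29% were higher and 7.14% lower there. Gpnmb did not pass the filter on low counts.

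**Figure D2:**
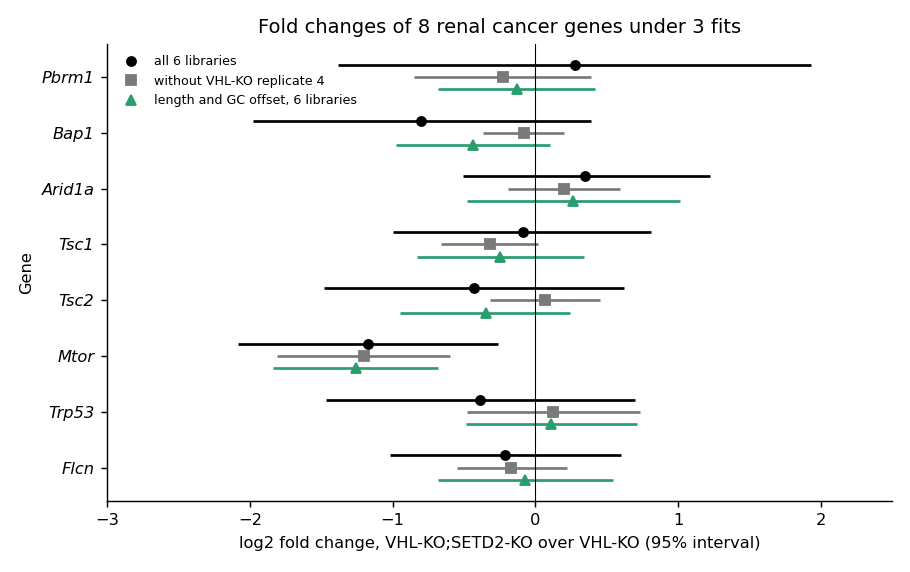
Log2 fold change (VHL-KO;SETD2-KO over VHL-KO) with its 95% interval for the 8 tested renal cancer genes, from edgeR with all 6 libraries (circles), without VHL-KO replicate 4 (squares) and with a length and GC offset (triangles). The Mtor interval lies below 0 in all 3 fits, and those of the other 7 genes include 0.

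Pbrm1 encodes BAF180, the subunit that defines the PBAF form of SWI/SNF. It was at 83.5, 79.1 and 9.63 CPM in VHL-KO-labelled libraries and at 77.7, 47.5 and 83.6 CPM in VHL-KO;SETD2-KO-labelled ones. A single library, VHL-KO replicate 4 with 103 counts, lay far below the rest, and the other 5 overlapped. The log2 fold change was 0.28 (95% interval -1.38 to 1.93; edgeR adjusted p = 0.896), and turned to -0.23 (95% interval -0.85 to 0.39) without it.

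Arid1a, the DNA-binding subunit of the BAF form, was at 74.7, 78.4 and 54.0 CPM, then at 91.2, 75.3 and 98.1 CPM. The replicate 3 library of the VHL-KO;SETD2-KO label lay among the VHL-KO libraries, so the groups overlapped. Arid1a had a log2 fold change of 0.35 (95% interval -0.51 to 1.22; edgeR adjusted p = 0.760), and 0.20 (95% interval -0.19 to 0.59) without VHL-KO replicate 4.

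Of the 24 other SWI/SNF subunits tested, 0 were called in either direction by the unadjusted rule with all libraries. Without VHL-KO replicate 4, where 7.14% of all tested genes were lower and 8.29% higher, 1 subunit was lower, which was Smarca2. The median log2 fold change was -0.04, and 0.02 without VHL-KO replicate 4. Smarcd1 was the 1 of the 24 subunits with no overlap and was lower, where 11.0% of all tested genes were lower without overlap and 9.62% higher. It was at 22.1, 23.4 and 46.4 CPM, then 21.8, 17.3 and 20.4 CPM, with a log2 fold change of -0.62 (unadjusted p = 0.180). Without VHL-KO replicate 4, DESeq2 called the ATPase Smarca2 lower (adjusted p = 0.00120), while its edgeR adjusted p was 0.103. Smarca2 was at 295.3, 296.9 and 61.4 CPM, then at 157.0, 127.7 and 184.9 CPM, again separating only without that library.

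Bap1, the nuclear deubiquitinase, was at 51.5, 52.5 and 153 CPM in VHL-KO-labelled libraries and at 47.0, 50.1 and 50.8 CPM in VHL-KO;SETD2-KO-labelled ones. The groups did not overlap, but only by the gap from 50.8 to 51.5 CPM. Its log2 difference of -0.80 (95% interval -1.98 to 0.39; edgeR adjusted p = 0.641) became -0.08 (95% interval -0.37 to 0.20) without VHL-KO replicate 4. Bap1 and Mtor made 2 of 8 tested genes with no overlap and lower values, and 0 of 8 were higher without overlap, where 11.0% and 9.62% of all tested genes were.

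Bap1 lies 129760 bases after the end of Pbrm1 on chromosome 14, at chr14:31251352-31259930 after chr14:31019138-31121592. In VHL-KO replicate 4 these neighbours moved apart, with Pbrm1 far below and Bap1 far above the other 5 libraries. Among 11 BAP1 partners 0 were called, and the median log2 fold change was 0.17, and 0.02 without that library. Foxk1, which encodes a forkhead factor that binds BAP1, was the 1 partner with no overlap, at 33.5, 33.6 and 33.5 CPM, then 37.4, 34.1 and 38.6 CPM (log2 fold change 0.13, unadjusted p = 0.715). This made 1 of 11 higher and 0 lower without overlap, where 9.62% and 11.0% of all tested genes were.

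**Figure D3:**
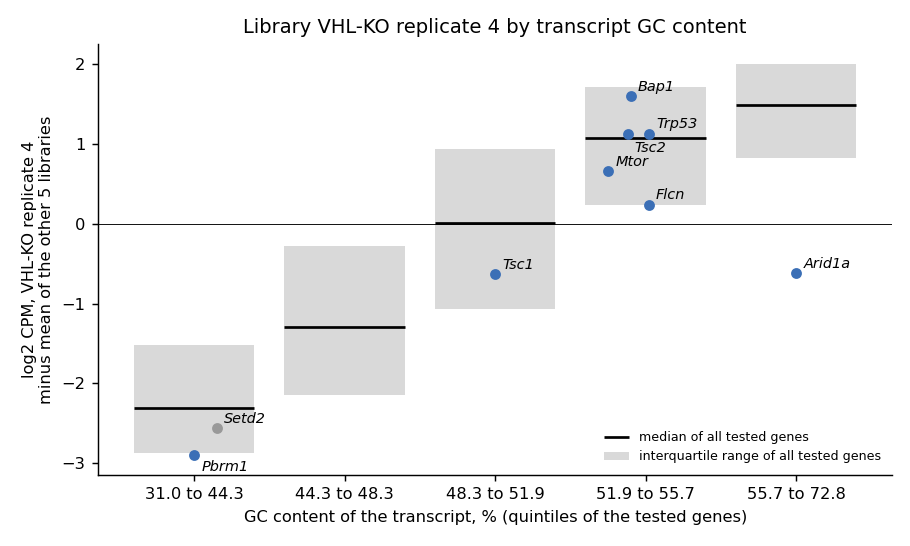
Log2 CPM of VHL-KO replicate 4 minus the mean of the other 5 libraries, by quintiles of tested genes on transcript GC content, with the interquartile range of all tested genes as grey boxes, their medians as lines and the renal cancer genes and Setd2 as points. The medians run from -2.31 in the lowest quintile to 1.49 in the highest, and Arid1a, with 56.7% GC, lies below the box of its quintile.

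Values in VHL-KO replicate 4 ran with the base composition of the transcripts over all tested genes. In this library Pbrm1 was -2.90 on the log2 scale from the mean of the other libraries and Setd2 -2.56, and both transcripts, with 41.8% and 44.3% GC, belong to the lowest quintile of tested genes, whose median was -2.31. Bap1 at 1.60, Tsc2 and Trp53 at 1.13, Mtor at 0.66 and Flcn at 0.24 belong to the fourth quintile, whose median was 1.08. The value of Mtor is set against a mean that holds the 3 VHL-KO;SETD2-KO-labelled libraries, and among the VHL-KO-labelled ones replicate 4 had the lowest Mtor level. Tsc1 was at -0.63 and Arid1a at -0.62, while the median of the highest quintile, which holds Arid1a, was 1.49. Long transcripts were also lower in this library, with medians from 1.13 in the shortest quintile to -1.48 in the longest.

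With an offset for length and GC content on all 6 libraries, the log2 fold changes were -0.13 for Pbrm1, -0.44 for Bap1, 0.26 for Arid1a, -0.25 for Tsc1, -0.35 for Tsc2, 0.11 for Trp53 and -0.07 for Flcn. For Mtor it was -1.26 ± 0.25 (unadjusted p = 0.00120, edgeR adjusted p = 0.155). Mtor was thus about as low with the offset as without it, and the signs of Pbrm1 and Trp53 changed. With the offset and without VHL-KO replicate 4, Tsc1 was at -0.44 (95% interval -0.82 to -0.06; unadjusted p = 0.0298, edgeR adjusted p = 0.191), which is under 1.5-fold.

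Trp53 encodes p53. It was at 25.3, 24.1 and 56.3 CPM in VHL-KO-labelled libraries and at 33.5, 19.3 and 28.1 CPM in VHL-KO;SETD2-KO-labelled ones. The groups overlapped, and VHL-KO replicate 4 was the highest. For Trp53 the log2 fold change was -0.39 (95% interval -1.47 to 0.70; edgeR adjusted p = 0.787), and 0.12 (95% interval -0.48 to 0.73) without that library. Its pseudogene Trp53-ps held 0 to 8 counts per library.

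The 11 tested p53 regulators, such as Mdm2 and Atm, had a median log2 fold change of 0.42 and 0 calls. All 11 were above 0, but the median was 0.03 without VHL-KO replicate 4. Ppm1d, a phosphatase that acts on p53, was the 1 regulator with no overlap, at 12.3, 12.4 and 7.30 CPM, then 15.5, 14.2 and 15.4 CPM (log2 fold change 0.50, unadjusted p = 0.236). This made 1 of 11 higher and 0 lower without overlap, where 9.62% and 11.0% of all tested genes were.

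Of 31 tested p53 target genes, 1 was higher, Sesn1 with the values above, and 1 was lower by the unadjusted rule, against 2.65% and 4.68% of all tested genes. The lower one was Dcxr, a xylulose reductase gene, at 84.7, 78.9 and 451.3 CPM, then 47.1, 88.2 and 52.1 CPM. Its groups overlapped, and its log2 fold change of -1.71 (unadjusted p = 0.0498) became -0.39 without VHL-KO replicate 4. The list median was 0.28, and 0.21 without that library, where DESeq2 called 3 targets higher and 1 lower. The 3 were Sesn1, the adenylate kinase gene Ak1 (adjusted p = 0.00207) and the epoxide hydrolase gene Ephx1 (adjusted p = 0.0352). The fourth was Perp, which encodes a desmosomal protein (adjusted p = 0.00821). On the same libraries edgeR called 5 targets higher and 1 lower by the unadjusted rule, and 0 by adjusted p. Of all tested genes, DESeq2 called 3.56% higher and 4.69% lower there with a 1.5-fold change, and edgeR's unadjusted rule 8.29% and 7.14%. With all 6 libraries the groups of Ak1, Ephx1 and Perp overlapped, with log2 fold changes of -0.01, -0.16 and -0.37.

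Cdkn2a, whose row joins p16Ink4a and p19Arf, was barely detected. It had 0 counts in all 3 libraries labelled VHL-KO, and 0, 2 and 0 in VHL-KO;SETD2-KO-labelled ones. With a floor of 3 counts, each library could have held up to 0.159 to 0.281 CPM, which covers counting error only, so no difference was detectable at this depth. The exact two-sided permutation test of its mean CPM gave p = 1.00, and the smallest p the 20 arrangements allow is 0.1. The neighbouring inhibitor Cdkn2b had 4 to 16 counts per library and was not tested either.

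Among 16 tested genes of the INK4 and RB axis, 0 were called with all libraries. The median log2 fold change was 0.18 with and without VHL-KO replicate 4. Without that library 1 was lower by the unadjusted rule, Cdk6 at -0.75 (edgeR unadjusted p = 0.0177, adjusted p = 0.171). Of all tested genes 7.14% were lower there and 8.29% higher. Of the 16 genes, 1 was higher and 0 were lower without overlap, where 9.62% and 11.0% of all tested genes were. The higher one was Rb1, the retinoblastoma gene, at 30.9, 35.8 and 5.14 CPM, then 40.0, 41.7 and 41.0 CPM. Its log2 fold change was 0.77 (unadjusted p = 0.265), and 0.29 without that library.

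Of 22 other genes known from kidney cancer, 0 were called by the unadjusted rule with all libraries. Without VHL-KO replicate 4, where 8.29% of all tested genes were higher and 7.14% lower, 1 was higher and 1 was lower. The median log2 fold change of the list was 0.07, and -0.08 without that library. With all libraries, 3 of the 22 were higher and 2 lower without overlap, where 9.62% and 11.0% of all tested genes were. Mitf, a melanocyte and renal cancer factor of the TFEB family, did not overlap between the groups. It was at 6.67, 8.51 and 2.24 CPM, then at 10.7, 19.9 and 11.7 CPM (log2 fold change 1.28, unadjusted p = 0.0515). Without VHL-KO replicate 4 its log2 fold change was 0.90 (edgeR unadjusted p = 0.0356, adjusted p = 0.217). Sdhc and Sdhd, subunits of succinate dehydrogenase, were lower without overlap, with log2 fold changes of -1.21 (unadjusted p = 0.0712) and -0.83 (unadjusted p = 0.116), and of -0.37 and -0.33 without that library. Met, the hepatocyte growth factor receptor, was at 233.1, 179.9 and 25.3 CPM, then at 86.2, 75.5 and 97.9 CPM. DESeq2 called Met lower without VHL-KO replicate 4 (adjusted p = 3.24e-06), while its edgeR adjusted p there was 0.0775. With all 6 libraries its groups overlapped.

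**Figure D4:**
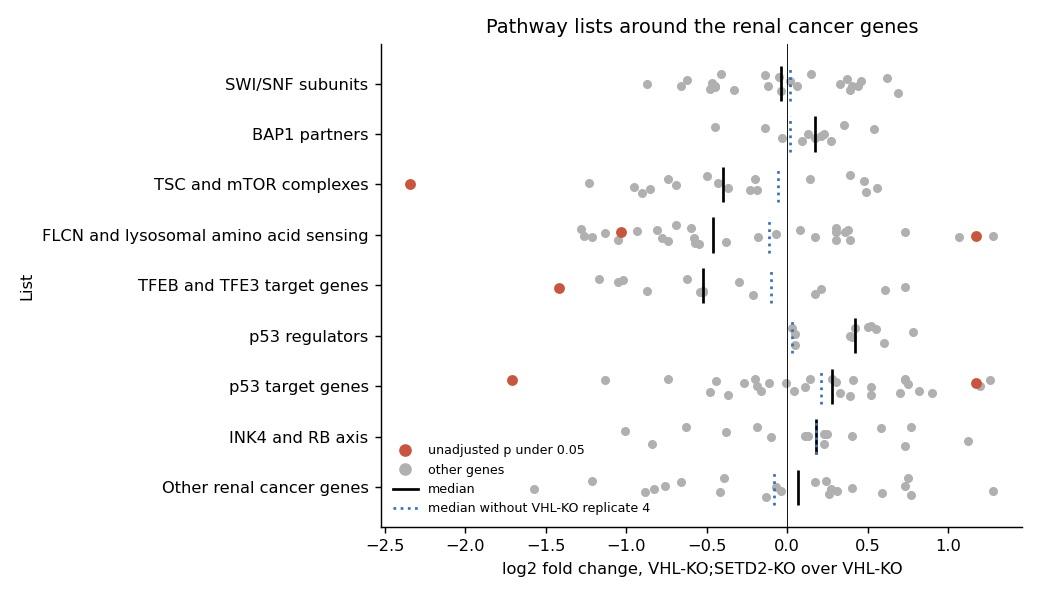
Log2 fold changes (VHL-KO;SETD2-KO over VHL-KO, all 6 libraries) of the tested genes of 9 lists around the renal cancer genes, with genes at an unadjusted p under 0.05 in red, medians as solid lines and medians without VHL-KO replicate 4 as dotted lines. The medians of the mTOR, FLCN, TFEB and p53 regulator lists lie nearer to 0 without that library.

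Per kb of transcript, Bap1 had the highest median level over the 6 libraries, 14.8 CPM per kb, with Trp53 at 14.3, Flcn at 11.1, Tsc2 at 10.7, Mtor at 10.3, Pbrm1 at 9.92 and Arid1a at 9.39 CPM per kb. The ranges of each neighbouring pair in this order overlapped. Tsc1 followed at 4.89 CPM per kb (range 3.28 to 6.09), below the whole range of Arid1a, and Cdkn2a was last at 0. In CPM not divided by length, the 8 tested genes had 65.0% to 87.0% of all tested genes below them, with Trp53 the lowest. Mtor was above 90.7% of tested genes by its mean in VHL-KO-labelled libraries and above 79.0% in VHL-KO;SETD2-KO-labelled ones, where Arid1a, Pbrm1 and Tsc2 had higher means.

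The genes closest in pattern were found by the root mean square difference of log2 CPM, centred over the 6 libraries. For Mtor they were Gm11827 at 0.124 and Ugt1a7c at 0.148. Ugt1a7c, a glucuronosyltransferase gene, was at 376.4, 344.3 and 299.2 CPM, then at 155.6, 107.7 and 181.9 CPM. The closest genes of the other 7 tested genes were nearer to them, at 0.0250 for Bap1 with Bcas3, 0.0395 for Tsc1 with Zbtb24, 0.0456 for Flcn with Mettl2, 0.0502 for Tsc2 with Psme2, 0.0571 for Arid1a with Dgka, 0.0670 for Pbrm1 with Zfp81 and 0.0695 for Trp53 with Sgsh. The second closest were Ddb1, Ppp3cc, Zfp384, Cd2bp2, Wdr82, Slc39a10 and Tln1 in the same order, at 0.0432 to 0.0829. Without VHL-KO replicate 4 some of these ranks moved far and others little, and no other library was left out here. Gm11827 was then 3 and Ugt1a7c 39 in the order of closeness to Mtor, Ddb1 was 22 for Bap1, Wdr82 was 39 for Arid1a and Ppp3cc was 35 for Tsc1. Zfp81 stayed at 1 for Pbrm1 and Psme2 at 1 for Tsc2, while Zfp384 was 2 for Flcn, Dgka 4 for Arid1a and Bcas3 6 for Bap1.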

How the data were processed

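The authors prepared directional libraries, sequenced paired ends and deposited raw counts per gene symbol. Per the labels' processing notes, HISAT2 2.0.4 and the build GRCm38 were used. The counter, the annotation and the use of strand are not given in the sources used here. Groups came from the labels. The study describes the libraries as 3 mice per group. In the count table, 0 columns of samples went unused.

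From the deposited counts, edgeR 4.0.16 (R 4.3.3) gave TMM factors and quasi-likelihood tests for the 14611 genes kept by filterByExpr, with genotype as the only factor and Benjamini-Hochberg adjustment over all of them. Standard errors are the log2 fold change over the root of F. DESeq2 1.42.0 and limma 3.58.1 voom were alternatives, as were other scalings, filters, offsets and left-out libraries. Log2 CPM used a prior count of 2. Transcript length and GC content, from the longest coding transcript in GENCODE, were matched for 96.7% of tested genes. Gene positions and upstream sequence are from RefSeq GRCm38.p6. Counts of 14611 genes were simulated with 200 changed 4-fold. At an adjusted p under 0.05, edgeR recovered 200 at a dispersion of 0.05 and 35 at 0.272. The value 0.272 is the common dispersion estimated from these data, so a gene not called here can still differ.

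The genes and lists were chosen with earlier results of these data known. All 9 genes, Setd2 and Vhl are named. From each list the named genes are those with an unadjusted p under 0.05 or, where there were none, up to 3 whose groups did not overlap, by size of change. For each gene tested, the 2 with the closest pattern are named. Smarca2, Fnip2, Met, Ak1, Ephx1, Perp, Cdk6 and Angptl7 were chosen after their values were seen. Some genes are not reported here.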

Additional observations from a re-analysis of the deposited data

How the results depend on the processing

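Mtor kept its direction under all 17 alternatives. Its log2 fold change was -1.21 and passed the adjusted threshold in DESeq2 without VHL-KO replicate 4, an alternative chosen after seeing the data, as was the offset for length and GC content without that library, and it ranged from -1.43 to -1.01 with each library left out. As the ratio of mean CPM it was -1.17, and -0.84 over totals without mitochondrial genes and without TMM factors. By that second ratio Tsc2 and Trp53 turned to 0.0217 and 0.0750. With TMM factors and mitochondrial genes left out, the fits gave -1.14 for Mtor, -0.37 for Tsc2 and -0.32 for Trp53. Bap1 also kept its direction, from -1.04 to -0.08 with libraries left out. The sign turned for Pbrm1, to -0.13 with the offset, and without VHL-KO replicate 4 to -0.23 in DESeq2 and -0.27 with the offset. Its range with libraries left out was -0.23 to 0.65. Tsc1 turned to 0.0894 without VHL-KO replicate 1 and to 0.11 with the replicate block (range -0.32 to 0.0894). With the offset and without VHL-KO replicate 4 Tsc1 was at -0.44, with no change of sign. Tsc2 turned to 0.0616 in DESeq2 without that library (range -0.66 to 0.0656). Trp53 turned to 0.11 with the offset, and without that library to 0.12 in DESeq2 and 0.0874 with the offset (range -0.58 to 0.12). Arid1a turned to -0.0216 with the offset and without that library. The cause was not tested.

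Genes with an adjusted call numbered 0 higher and 1 lower. They were 1 and 50 in DESeq2, 534 and 704 in DESeq2 without VHL-KO replicate 4, and among the lower ones 2 with no filter on low counts, 0 with at least 10 counts in every library and 0 to 1 with each library left out. DESeq2 gave no adjusted p for 13319 genes, the 8 tested genes among them. Genes with an unadjusted call numbered 387 higher and 684 lower. The higher ones were 634 with no filter, 875 with the offset, 1425 in DESeq2 and 1075 with the offset without VHL-KO replicate 4, and 179 to 1243 with libraries left out. The lower ones were 1133 in DESeq2, 1314 with the offset, 1093 in DESeq2 and 1216 with the offset without that library, and 206 to 1078 with libraries left out. The share of higher among called genes was 36.1%, 46.5% in limma-voom, which moved the median of all genes to 0.129, 16.9% without VHL-KO replicate 1, 53.7% without VHL-KO replicate 4 and 56.6% in DESeq2 without that library. List medians moved for BAP1 partners (-0.17 with the offset without VHL-KO replicate 4), the mTOR list (-0.0622 in DESeq2 without that library, -0.62 to -0.0578 with libraries left out) and the FLCN list (-0.29 in limma-voom, -0.18 with the offset, and without that library -0.11 in DESeq2 and -0.20 with the offset, -0.48 to -0.11 with libraries left out).

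The numbers 2 and 4 occur in both groups, but nothing says that they pair the mice, and the deviations of same-numbered libraries correlated at 0.16 and -0.32. With the replicate block, Mtor was at -1.06 (edgeR adjusted p = 0.951), Tsc1 at 0.11 and the p53 regulator median at 1.35, with 93 higher and 54 lower unadjusted calls, a 63.3% share of higher ones and a median of all genes of 0.112. With the block and the offset, Trp53 was at 0.36 and Flcn at 0.0682, the FLCN list at -0.23, with 689 higher unadjusted and 2 lower adjusted calls.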
